A study of Homo sapiens with 12 samples.

Results

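The genes described here lie side by side on the long arm of chromosome 15, in the bands 15q21 to 15q22. They are the genes whose start falls from BLOC1S6 through MAP2K1 in RefSeq gene order and that have at least 1 probe set naming no other gene, with USP3, USP8 and USP50 left aside, which removed 2 measured genes. This gave 139 genes of the 19775 on the arrays, 121 of them protein-coding and 18 long noncoding RNAs, read by 330 probe sets. The stretch was chosen by measured values, the lower log2 values of neighbouring genes in KMS-11/Cfz than in KMS-11. Every value of KMS-11/Cfz over KMS-11 therefore describes that choice, carries no test and supports nothing.

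The resistant groups, KMS-11/Cfz and KMS-34/Cfz, came from the human multiple myeloma lines KMS-11 and KMS-34, both with the t(4;14) translocation, and were selected until they grew in 12 nM carfilzomib, a drug that blocks the proteasome. They had then grown for 1 week without the drug, while the parental KMS-11 and KMS-34 cells had not been selected, and the labels give 4% fetal bovine serum for all 4 groups. RNA of each group was hybridised to 3 Affymetrix arrays, 12 in all. Each resistant group is a selected population of 1 line in culture, and the sources do not say if its 3 replicates were grown apart. A p-value here is therefore set against the spread between arrays, which may be technical. The values are log2 signals centred around 0 for each probe set, so they compare arrays and hold no expression level, and markers of plasma cells could not be checked as levels.

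Genes that neighbour each other on a chromosome need share no function, and most are switched on and off through promoters of their own. What they share is the stretch of DNA and chromatin on which they lie. Myeloma is a cancer of antibody-secreting plasma cells, in which gained and lost chromosomes are common. The arrays read RNA only, and the DNA of the stretch was not measured. RNA of whole cultures was read, so fewer cells with a transcript and less of it in each cell cannot be told apart.

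The 250 bases before the start of 6 of the genes are shown first, because the genes are also described by whether their promoter is CpG-rich. They are the 3 genes with the lowest values in KMS-11/Cfz, the CpG-poor genes on either side of the lowest of them, and the gene with the highest value. SLC27A2 (chr15:50181946-50182195, plus strand) encodes an acyl-CoA synthetase and fatty acid transport protein, ANKDD1A (chr15:64911652-64911901, plus strand) a protein with ankyrin repeats and a death domain, and ADAM10 (chr15:58749708-58749957, minus strand) a metalloprotease that cuts Notch and other proteins from the cell surface. LOC102724587 (chr15:49877049-49877298, plus strand) is a long noncoding RNA and HDC (chr15:50265727-50265976, minus strand) the gene of histidine decarboxylase, which makes histamine, both next to SLC27A2, and ANXA2 (chr15:60397987-60398236, minus strand) encodes annexin A2, which binds membrane phospholipids in the presence of calcium. The sequences are from RefSeq on GRCh38.p14, read 5′ to 3′ on the strand of the gene, with each CpG in capitals.
SLC27A2: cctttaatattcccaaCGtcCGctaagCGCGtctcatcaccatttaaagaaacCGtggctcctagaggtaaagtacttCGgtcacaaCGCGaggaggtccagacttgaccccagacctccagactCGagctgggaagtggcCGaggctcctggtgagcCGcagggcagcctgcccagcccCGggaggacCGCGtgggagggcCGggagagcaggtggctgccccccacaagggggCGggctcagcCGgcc
ANKDD1A: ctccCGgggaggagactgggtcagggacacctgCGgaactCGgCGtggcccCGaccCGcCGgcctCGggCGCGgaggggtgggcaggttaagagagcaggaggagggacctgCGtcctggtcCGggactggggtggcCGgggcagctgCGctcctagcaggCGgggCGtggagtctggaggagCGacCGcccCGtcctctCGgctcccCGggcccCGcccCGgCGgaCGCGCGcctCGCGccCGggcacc
ADAM10: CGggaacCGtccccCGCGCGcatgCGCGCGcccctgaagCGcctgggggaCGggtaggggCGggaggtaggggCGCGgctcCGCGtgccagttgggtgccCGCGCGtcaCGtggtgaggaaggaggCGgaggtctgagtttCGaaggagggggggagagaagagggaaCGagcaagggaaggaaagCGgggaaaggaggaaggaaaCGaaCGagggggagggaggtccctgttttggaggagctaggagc
LOC102724587: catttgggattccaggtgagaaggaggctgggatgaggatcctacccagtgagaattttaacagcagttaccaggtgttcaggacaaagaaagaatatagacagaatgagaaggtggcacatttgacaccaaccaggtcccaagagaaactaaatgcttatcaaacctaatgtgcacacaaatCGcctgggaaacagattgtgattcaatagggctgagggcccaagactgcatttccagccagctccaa
HDC: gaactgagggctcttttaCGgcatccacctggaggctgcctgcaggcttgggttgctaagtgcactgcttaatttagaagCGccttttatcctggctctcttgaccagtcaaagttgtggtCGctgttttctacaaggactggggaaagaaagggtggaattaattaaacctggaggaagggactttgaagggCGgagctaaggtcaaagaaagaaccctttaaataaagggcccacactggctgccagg
ANXA2: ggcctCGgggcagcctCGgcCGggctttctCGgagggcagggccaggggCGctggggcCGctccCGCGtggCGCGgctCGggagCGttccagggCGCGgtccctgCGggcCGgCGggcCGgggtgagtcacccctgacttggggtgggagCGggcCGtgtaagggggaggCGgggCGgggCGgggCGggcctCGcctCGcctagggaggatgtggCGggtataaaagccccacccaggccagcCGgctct
These windows hold 17 CpGs in SLC27A2, 30 in ANKDD1A, 25 in ADAM10, 1 in LOC102724587, 4 in HDC and 28 in ANXA2. The log2 difference of KMS-11/Cfz over KMS-11 was -0.98 for SLC27A2, -0.67 for ANKDD1A, -0.58 for ADAM10, 0.04 for LOC102724587, -0.15 for HDC and 0.47 for ANXA2.

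Lower RNA in KMS-11/Cfz was spread along the stretch, though not in every gene. The median log2 difference of KMS-11/Cfz over KMS-11 was -0.112 over the 139 genes, with quartiles of -0.217 and 0.008, against 0.004 over the 19163 genes on other chromosomes or without a position. It was below 0 in 103 of the 139 genes (74.1%), and in 48.3% of those 19163. On single arrays, the median of the 139 genes relative to the KMS-11 mean was -0.103, -0.124 and -0.106 in the KMS-11/Cfz arrays, and -0.013, 0.011 and -0.002 in the KMS-11 arrays. All 3 KMS-11/Cfz arrays lay below all 3 KMS-11 arrays.

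**Figure D1:**
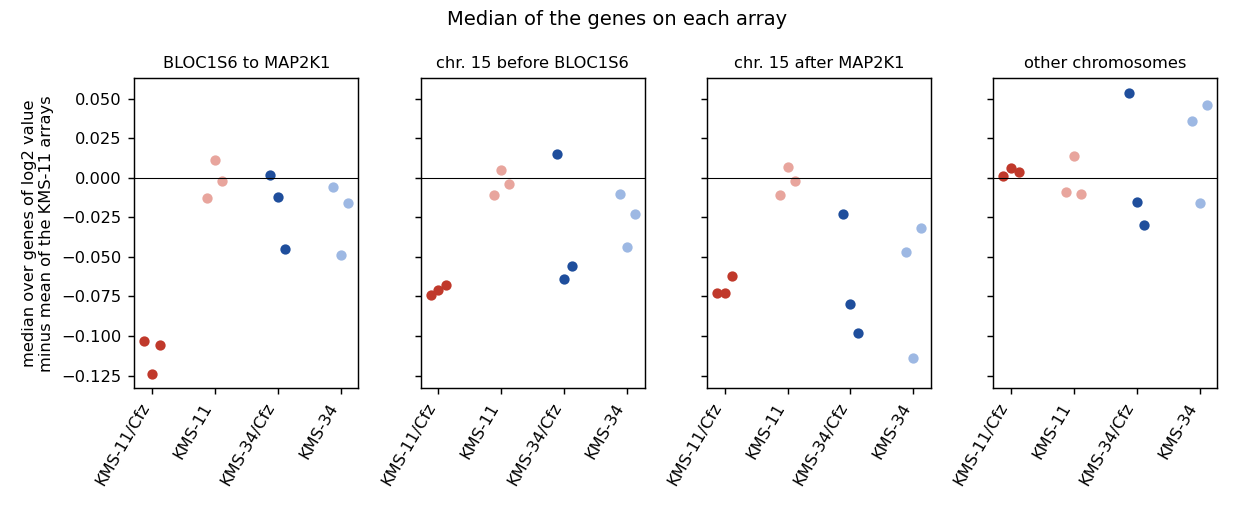
Median over genes on each array (vertical axis, log2 value minus the mean of the 3 KMS-11 arrays), 1 point per array, for the 139 genes from BLOC1S6 to MAP2K1, the chromosome 15 genes before and after them, and all other genes. The KMS-11/Cfz arrays lie between -0.124 and -0.103 for the 139 genes, between -0.074 and -0.062 for the rest of chromosome 15 and between 0.001 and 0.006 for all other genes.

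Lower values were also found on both sides of the stretch, though not right before BLOC1S6. From TERB2 to HMGN2P46, the genes just before it, the running median of 11 genes lay between 0.020 and 0.031. It was -0.022 at BLOC1S6, and -0.071 at SNAPC5, the first gene after MAP2K1. The 184 chromosome 15 genes before BLOC1S6 had a median log2 difference of -0.065 in KMS-11/Cfz over KMS-11, and 127 of them were below 0. The 287 genes after MAP2K1 had a median of -0.067, with 198 below 0. Chromosome 15 as a whole, at -0.077 over 612 genes, had the lowest median of the 23 chromosomes compared, followed by chromosome 13 at -0.036. At the edges, the genes just inside the stretch were BLOC1S6, a subunit of the lysosome-related organelle complex BLOC-1, at -0.24, the sulfide oxidase gene SQOR at 0.15 and the semaphorin gene SEMA6D at 0.02, and at the other end the RNA exosome nuclease gene DIS3L at -0.34, the replication fork gene TIPIN at -0.15 and MAP2K1, which encodes the kinase MEK1, at -0.20. Just outside lay COXFA4L3 at 0.09, SLC30A4 at -0.02 and HMGN2P46 at 0.18 on one side. On the other lay SNAPC5 at 0.03, ZWILCH at -0.25 and LCTL at -0.07.

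**Figure D2:**
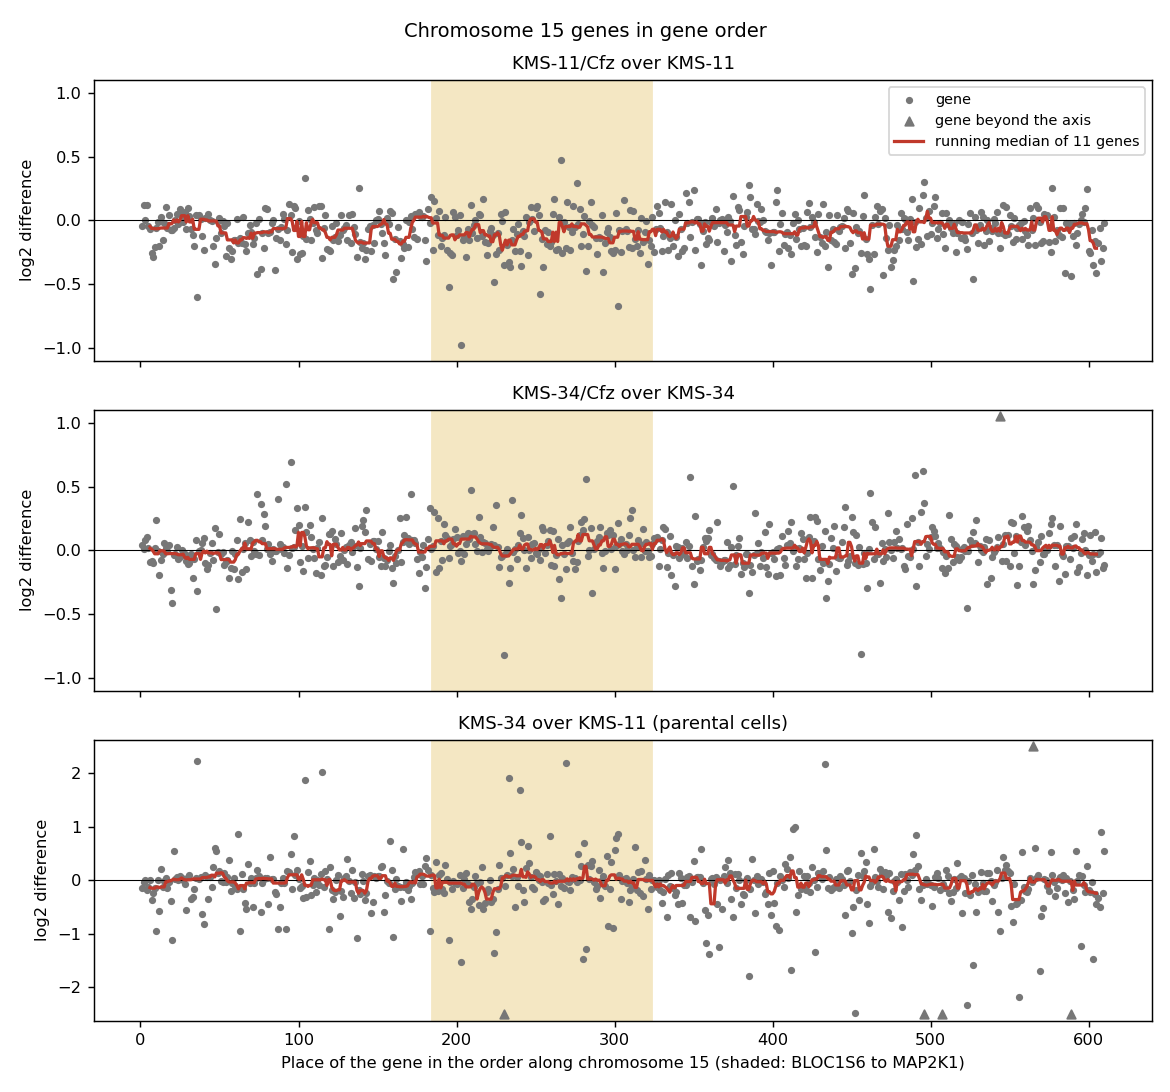
Log2 difference of each chromosome 15 gene (points, vertical axis) by its place in gene order (horizontal axis), with the running median of 11 genes (line), for KMS-11/Cfz over KMS-11, KMS-34/Cfz over KMS-34 and KMS-34 over KMS-11, with triangles for genes beyond the axis and shading from BLOC1S6 to MAP2K1. In KMS-11/Cfz the running median is below 0 in 136 of 139 shaded windows, and in KMS-34/Cfz in 22 of 139.

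Within the stretch, the running median over 11 neighbouring genes was lowest at WDR72, at -0.235, and highest at CGNL1, at 0.011. It was below 0 in 97.8% of the windows there, in 83.8% of those before the stretch and in 94.0% of those after it. The longest unbroken run of genes below 0 in the stretch held 12 genes, RSL24D1 to MNS1, among them RAB27A, PIGB, NEDD4 and RFX7. Unbroken runs below 0 also lay elsewhere on chromosome 15, such as LINS1 to UBE2Q2P13. Of the 330 probe sets, 243 were below 0. Of the 89 genes with several probe sets, 53 had all of them below 0, 7 had all above 0 and 29 had both signs.

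Past an adjusted p of 0.05 in the fit of all genes, 16 of the 139 were lower and 1 was higher in KMS-11/Cfz, where 1.94% of all genes were lower, 1.63% higher and 3.57% either. In 63 genes all KMS-11/Cfz arrays were below all KMS-11 arrays and in 7 they were above, where 13.7% and 13.1% of all genes did so. Called lower were 11.5% of the 139, 8.15% of chromosome 15 genes before BLOC1S6 and 5.57% of those after MAP2K1. Below without overlap were 45.3%, 32.6% and 35.5%. The counts of the 139 genes follow from how the stretch was chosen. The 16 lower genes were SLC27A2, ANKDD1A, ADAM10, SECISBP2L, MYO5C, PPIB, RAB8B, MINDY2, PIGB, RFX7, DIS3L, RAB27A, TCF12, MYO5A, INTS14 and VPS13C. They lie at places 11 to 137 of the 139 in gene order. The count of 16 was 8, 7 and 5 without KMS-11/Cfz replicates 1, 2 and 3, and 6, 7 and 9 without KMS-11 replicates 1, 2 and 3.

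SLC27A2 had centred log2 values of 0.44, 0.62 and 0.53 in KMS-11/Cfz, against 1.394, 1.496 and 1.636 in KMS-11. The groups did not overlap, and the value was 1.97-fold lower in KMS-11/Cfz, with both probe sets between -0.99 and -0.96. ANKDD1A had -1.40, -1.44 and -1.46 in KMS-11/Cfz, against -0.89, -0.74 and -0.65 in KMS-11, which is 1.59-fold lower without overlap. Its probe sets lay apart, at -0.92 and -0.42. ADAM10 had -0.39, -0.37 and -0.44 in KMS-11/Cfz, against 0.09, 0.30 and 0.15 in KMS-11. Its 3 probe sets lay between -0.70 and -0.47. In the same gene in the other line, KMS-34/Cfz arrays had 0.04, 0.24 and 0.26 and KMS-34 arrays 0.26, 0.34 and 0.17, which overlapped.

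**Figure D3:**
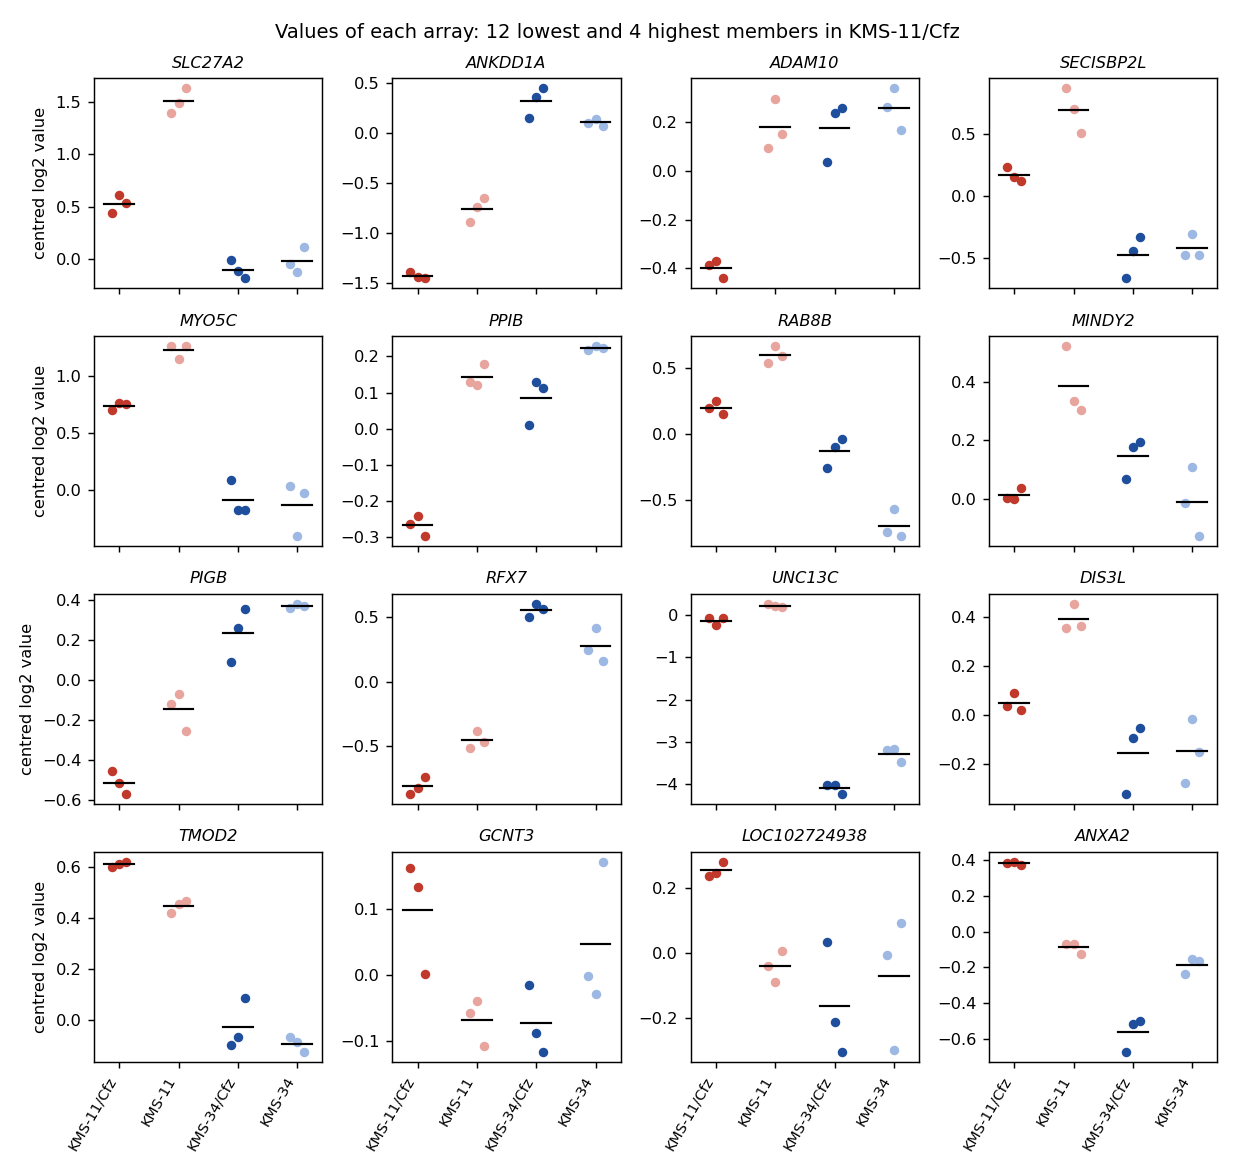
Centred log2 value on each array (points) and group mean (bars) for the 12 genes with the lowest and the 4 with the highest log2 difference in KMS-11/Cfz over KMS-11, each panel with its own vertical axis. RAB8B is lower in KMS-11/Cfz than in KMS-11 and higher in KMS-34/Cfz than in KMS-34, and ANXA2 shows the opposite pattern.

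Genes of many kinds of work were below 0 in KMS-11/Cfz. Of 16 genes of endosome and vesicle traffic, 13 were below 0, with a median log2 difference of -0.158. Among them were MYO5C and MYO5A, class V myosins that carry vesicles along actin, at -0.48 and -0.26, and RAB8B, a small GTPase of transport to the plasma membrane, at -0.40. DMXL2, which helps to control the proton pump of acidic vesicles, was highest of them at 0.05.

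Of 12 measured genes of proteases and ubiquitin enzymes, 11 were below 0 (median -0.199). ADAM10, MINDY2, a deubiquitinase, at -0.37, and COPS2, a subunit of the COP9 signalosome, at -0.26, were lowest, and SPPL2A, an intramembrane protease that cuts CD74 in B cells, was highest at 0.12. Of 20 measured genes of transcription and RNA processing, 18 were below 0 (median -0.174), with SECISBP2L, a relative of the SECIS-binding protein of selenoprotein synthesis, at -0.53, the transcription factor gene RFX7 at -0.36 and DIS3L at -0.34. ONECUT1, a transcription factor of liver and pancreas, was at 0.05.

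The 15 measured genes of the endoplasmic reticulum, metabolism and mitochondria had a median of -0.156, with 12 below 0. SLC27A2 was lowest, followed by PPIB, cyclophilin B, a protein-folding enzyme of the endoplasmic reticulum, at -0.41 and PIGB, which adds mannose to GPI anchors, at -0.37. GCNT3, a mucin-type glycosyltransferase gene, was highest at 0.17. Of 9 signalling genes, 6 were below 0 (median -0.136), with MAP2K1 at -0.20, the kinase genes CSNK1G1 and MAPK6 both at -0.18, and the Ras-like gene RASL12 at 0.16.

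All 7 genes of DNA replication and cell division were below 0, between -0.24 for the helicase gene PIF1 and -0.09 for PCLAF, which binds PCNA, with DUT, which breaks down dUTP, at -0.20. Among 30 genes of the same functions on other chromosomes, 14 were below 0 and the median was 0.006. The 7 lie in a stretch chosen by these values and the 30 do not, so nothing is read from this comparison. The 10 genes of actin, myosin and the membrane skeleton had a median of -0.098, with 7 below 0, and MYO1E, a class I myosin, at -0.20. The others above 0 with the highest values were LOC102724938 at 0.30 and TMOD2, which caps actin filaments, at 0.16. Of marker genes of T and NK cells (10 measured), monocytes (7), erythroid cells (4) and stroma (7), 0 passed the threshold by limma in KMS-11/Cfz over KMS-11, and 0, 0, 1 and 1 had an unadjusted p under 0.05. Of 10 plasma cell markers 3 were lower, with a mean over the list of -0.639 to -0.605 in KMS-11/Cfz arrays and -0.437 to -0.386 in KMS-11 arrays. Their part in the result was not tested.

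For 47 of the genes a relative from the same gene family on another chromosome was measured. In KMS-11/Cfz over KMS-11, the median of the 47 was -0.173 and that of their relatives -0.019. The gene of the stretch was below its relative in 37 of the 47 pairs. The relatives played no part in the choice of the stretch, so a lower value of its genes was to a degree fixed by that choice, and nothing is read from these counts. ADAM10 was at -0.58 and ADAM17, another sheddase, at 0.04. PPIB was at -0.41 and cyclophilin A, PPIA, at 0.05. RAB8B was at -0.40 and RAB8A at -0.08. In KMS-34/Cfz over KMS-34, the median was 0.051 in the 47 genes and -0.011 in their relatives.

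**Figure D4:**
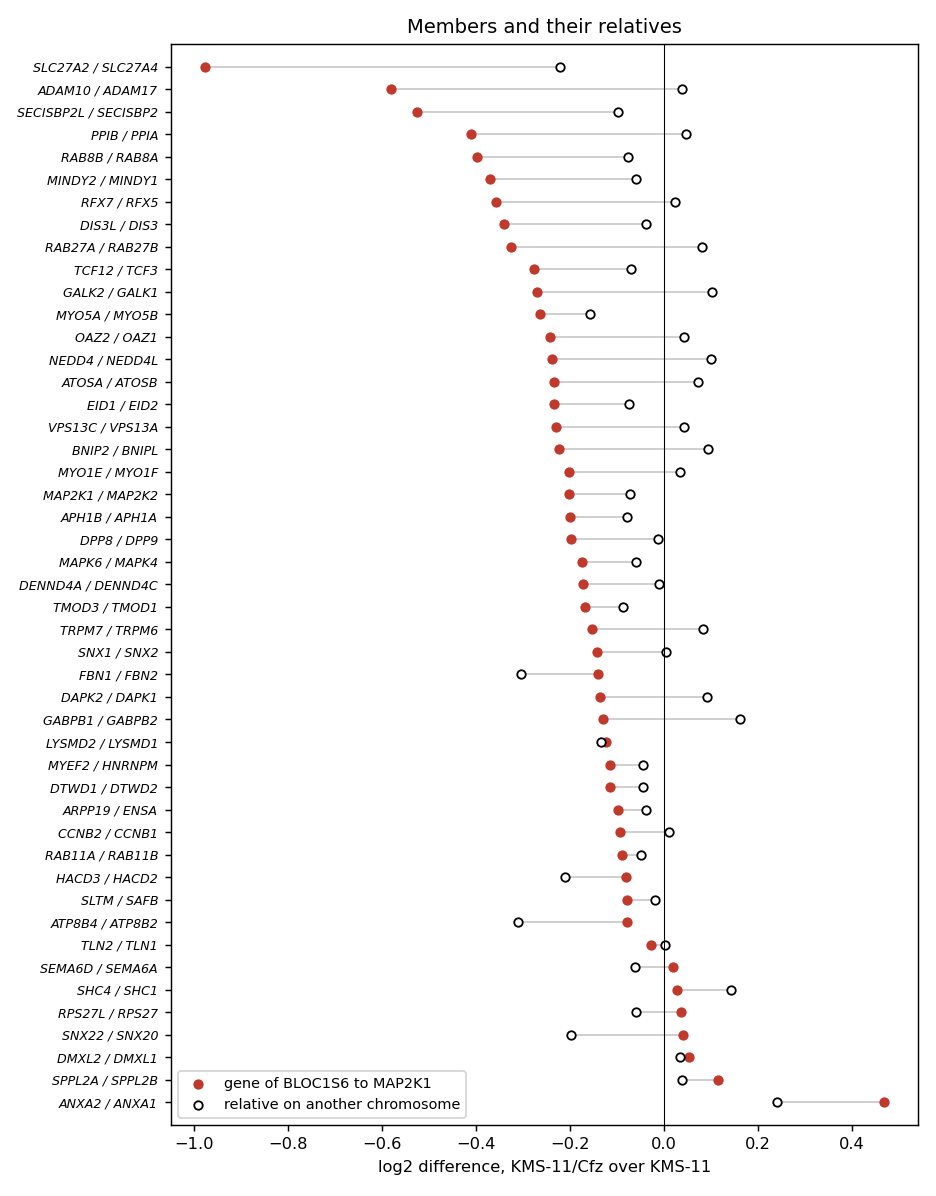
Log2 difference of KMS-11/Cfz over KMS-11 (horizontal axis) for 47 genes from BLOC1S6 to MAP2K1 (filled points) and a relative of each on another chromosome (open points), joined by a line. The filled point lies left of the open one in 37 of the 47 pairs.

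A promoter sequence was given for 127 of the 139 genes. Of these, 91 (71.7%) were CpG-rich in the 250 bases before the start, with a ratio of observed to chance-based CpGs of at least 0.6 and a GC content of at least 50%, as were 61.5% of the 15381 measured genes with a promoter and 44.9% of 27305 promoters of the genome. The median log2 difference of KMS-11/Cfz over KMS-11 was -0.140 in the 91 CpG-rich genes, with 75 below 0, and -0.003 in the 36 CpG-poor genes, with 19 below 0. Outside the stretch on chromosome 15, CpG-rich genes had medians of -0.092 before and -0.101 after it, and CpG-poor genes -0.020 and -0.021. On other chromosomes the medians were -0.004 for CpG-rich and 0.010 for CpG-poor genes. Protein-coding genes of the stretch had a median of -0.127 and long noncoding RNAs of 0.007. How far a gene is expressed was not known from the centred values, and its part in these differences was not tested. The letters GGGCGG, a GC box, were found on either strand in 55.1% of the promoters of the stretch and 42.3% of all promoters, CCAAT in 32.3% and 33.0%, and TATAAA in 7.1% and 11.1%, and such a match is only a match of letters. The second share of each is over the 27305 promoters of the genome, not the 15381 of measured genes, so nothing is read from these differences.

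In KMS-34/Cfz the values were not lower on balance. The median log2 difference of KMS-34/Cfz over KMS-34 was 0.040 over the 139 genes, with 52 below 0 (37.4%), against -0.011 and 53.9% over genes elsewhere. By limma with Benjamini-Hochberg adjustment over all genes, 11 of the 139 rose and 4 fell. This is 7.91% and 2.88%, where 5.4% of all genes rose and 4.69% fell, so the share called, 10.8%, was close to the 10.1% of all genes. All KMS-34/Cfz arrays were above all KMS-34 arrays in 18 genes and below them in 9, where 10.2% and 10.5% of all genes did so. KMS-34/Cfz replicate 1 correlated less with its group than any other array (mean r of 0.824, against 0.874 to 0.963), and without it 13 rose and 5 fell. Of the marker genes, 4 plasma cell, 1 monocyte and 1 erythroid gene fell and 1 plasma cell gene rose in KMS-34/Cfz, and of 30 genes of replication and mitosis on other chromosomes 5 rose and 1 fell. Their part in the result was not tested.

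RAB8B rose most. Its centred log2 values were -0.26, -0.10 and -0.04 in KMS-34/Cfz, against -0.74, -0.57 and -0.77 in KMS-34. The arrays did not overlap, the rise was 1.47-fold (log2 0.56, SE 0.08, limma adjusted p = 0.000393), and its 3 probe sets lay between 0.50 and 0.63. In KMS-11/Cfz the same gene had 0.20, 0.25 and 0.15, against 0.53, 0.67 and 0.59 in KMS-11, without overlap in the other direction. The rise in KMS-34/Cfz passed the threshold in all 20 alternatives run, with adjusted p from 7.86e-06 to 0.00972.

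SPPL2A rose by 0.47 on the log2 scale (SE 0.11, limma adjusted p = 0.0139), with 0.26, 0.41 and 0.11 in KMS-34/Cfz and -0.12, -0.06 and -0.45 in KMS-34, which did not overlap, and the call ended in 5 of 20 alternatives. MYO5A rose by 0.35 (SE 0.07, limma adjusted p = 0.00389), with 0.16, 0.18 and 0.26 in KMS-34/Cfz and -0.15, -0.12 and -0.19 in KMS-34, in 3 of its 4 probe sets. Under cyclic loess scaling, run on centred values that hold no signal levels, its adjusted p was 0.289. Smaller rises of 0.25 to 0.32 were called for PARP16, an ADP-ribosyltransferase of the endoplasmic reticulum, SQOR, RFX7, DMXL2 and MYEF2, a nucleic acid-binding repressor of the myelin basic protein gene in mice. Of 20 alternatives, these calls ended in 5 for PARP16, 7 for SQOR, 7 for RFX7, 13 for DMXL2 and 4 for MYEF2. Outside the rule for named genes, TPM1, a tropomyosin, SNX1, a sorting nexin of endosomes, and VPS13C, a lipid transfer protein, rose by 0.22, 0.19 and 0.18, and their calls ended in 11, 16 and 17 of 20 alternatives. Without probe sets marked as reading several transcripts, TPM1 was at 0.02 and SNX1 at 0.08 (limma adjusted p = 0.939 and 0.63), so these 2 rises are uncertain. VPS13C stayed at 0.18.

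UNC13C, whose mouse relative primes synaptic vesicles, fell by 0.82 in KMS-34/Cfz (log2 scale, SE 0.09, limma adjusted p = 7.6e-05). Its values were -4.03, -4.03 and -4.24 in KMS-34/Cfz and -3.18, -3.18 and -3.48 in KMS-34. The arrays did not overlap, and its 4 probe sets lay between -1.29 and -0.23. Under cyclic loess scaling the value was -1.04 with an adjusted p of 0.636. That scaling worked on centred values without signal levels, so for a gene this far from 0 it decides nothing. In KMS-11/Cfz over KMS-11, UNC13C was at -0.35 without overlap, short of the threshold, and between -0.425 and 2.782 over 20 alternatives. RAB27A, a GTPase of secretory granules, fell by 0.26 (SE 0.07, adjusted p = 0.0230), with 1.74, 1.86 and 1.75 in KMS-34/Cfz and 2.01, 2.17 and 1.96 in KMS-34. The arrays did not overlap, and the call ended in 6 of 19 alternatives. FBXL22, an F-box protein gene, fell by 0.34 (SE 0.08, adjusted p = 0.0190), a call that ended in 5 of 20.

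ANXA2 fell by 0.38 in KMS-34/Cfz (SE 0.06, limma adjusted p = 0.00150). Its values were -0.68, -0.52 and -0.50 in KMS-34/Cfz, against -0.24, -0.16 and -0.16 in KMS-34, and 0.38, 0.39 and 0.37 in KMS-11/Cfz, against -0.07, -0.07 and -0.13 in KMS-11. Neither pair overlapped. Annexin A2 has near-identical pseudogenes elsewhere in the genome, and the 3 probe sets marked as reading several transcripts lay between -0.51 and -0.47 in KMS-34/Cfz, while the fourth was at -0.03. Without the marked probe sets the value was -0.03 with an adjusted p of 0.943, so the fall is uncertain. In KMS-11/Cfz the 3 marked probe sets lay between 0.50 and 0.58 and the fourth was at 0.25. The call there ended without the marked ones, so the rise in KMS-11/Cfz is uncertain too.

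**Figure D5:**
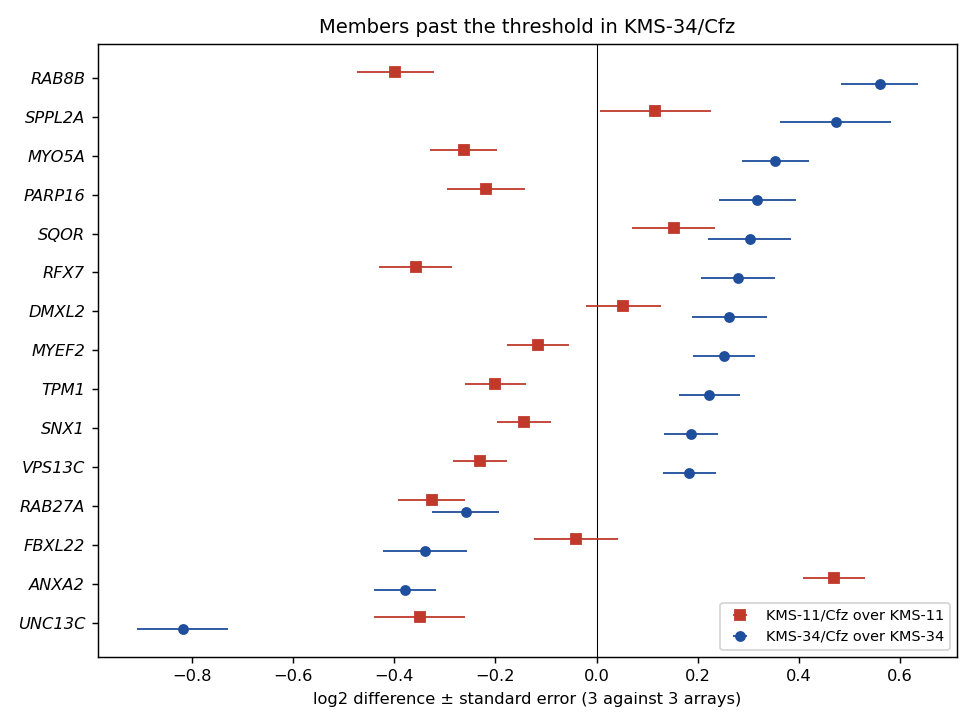
Log2 difference ± standard error (horizontal axis, 3 against 3 arrays) of the 15 genes past the threshold in KMS-34/Cfz, with KMS-34/Cfz over KMS-34 as circles and KMS-11/Cfz over KMS-11 as squares. RAB27A, UNC13C and FBXL22 are below 0 in both lines, and RAB8B, MYO5A and RFX7 are among those above 0 in KMS-34/Cfz and below 0 in KMS-11/Cfz.

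The calls of the lines, which share no arrays, were set side by side. RAB27A was lower in both, which is 1 of the 16 lower in KMS-11/Cfz (6.2%) and 1 of the 4 that fell in KMS-34/Cfz, where 80 of all genes were lower in both, 20.8% of the 384 and 8.6% of the 928. ANXA2, the 1 gene higher in KMS-11/Cfz, fell in KMS-34/Cfz, as did 33 of all 322 genes that were higher there (10.2%). MYO5A, RAB8B, RFX7 and VPS13C were lower in KMS-11/Cfz and rose in KMS-34/Cfz, which is 25% of the 16 genes and 36.4% of the 11. Over all genes the same pair of directions held for 49 genes, 12.8% of the 384 lower in KMS-11/Cfz and 4.6% of the 1068 that rose in KMS-34/Cfz. All 5 probe sets of RAB27A are marked as reading several transcripts. In KMS-11/Cfz its lower call ended in 6 of 19 alternatives, and those of MYO5A, RAB8B, RFX7 and VPS13C in 15, 2, 5 and 9 of 20. How many genes of the stretch were lower there follows from how it was chosen. Nothing is therefore read from these percentages, and no test of this overlap was made. The change in KMS-34/Cfz minus the change in KMS-11/Cfz had a median of 0.151 over the 139 genes and -0.018 over genes elsewhere, and holds the values by which the stretch was chosen.

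By role, 5 of the 16 genes of endosome and vesicle traffic rose and 2 fell in KMS-34/Cfz, with a median of 0.075, where 5.4% of all genes rose and 4.69% fell. MYO5A and MYO5C stand in this list and in that of actin and myosin. The lists are small, and nothing is called particular to one of them. Of the 20 of transcription and RNA processing 2 rose, and of the 15 of the endoplasmic reticulum, metabolism and mitochondria 2 rose. Of the 12 proteases and ubiquitin enzymes, 1 rose and 1 fell, and of the 10 genes of actin and the membrane skeleton, 2 rose and 1 fell. Of the 9 signalling and 7 replication genes, 0 passed the threshold by limma, and 1 of each list had an unadjusted p under 0.05.

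The parental lines differed in many of these genes without a common direction. This comparison shares the 3 KMS-11 arrays with the contrast that chose the stretch. In KMS-34 over KMS-11, the median log2 difference was -0.025 over the 139 genes and 0.025 over genes elsewhere, with 26 genes higher and 32 lower, where 21.6% of all genes were higher and 20.5% lower. The 58 called are 41.7% of the 139, against 42.1% of all genes. All KMS-34 arrays were above all KMS-11 arrays in 31 genes and below them in 46, where 26.1% and 24.0% of all genes did so.

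RORA, a nuclear receptor gene, was higher in KMS-34 by 2.20 on the log2 scale (SE 0.09, limma adjusted p = 1.29e-10). Its values were 0.33, 0.47 and 0.34 in KMS-34 and -2.03, -1.78 and -1.64 in KMS-11, far apart, though its 8 probe sets ranged between 0.06 and 3.94. RAB27A was higher by 1.91, with 2.01, 2.17 and 1.96 in KMS-34 and 0.15, 0.17 and 0.10 in KMS-11, and in all 5 probe sets by 1.84 to 1.95. NEDD4, a ubiquitin ligase gene, was higher by 1.68, with -0.15, 0.14 and -0.18 in KMS-34 and -1.89, -1.51 and -1.84 in KMS-11. ANKDD1A, MYO1E, PLEKHO2, RFX7 and the ribosomal protein-like RPS27L were higher by 0.69 to 0.87.

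UNC13C was 11.3-fold lower in KMS-34 than in KMS-11 (log2 -3.50, SE 0.09, limma adjusted p = 1.47e-12), with -3.18, -3.18 and -3.48 in KMS-34 and 0.27, 0.21 and 0.19 in KMS-11. Of its 4 probe sets, 3 lay between -4.86 and -4.45 and the other at -0.04. Under cyclic loess scaling the value was -1.24 with an adjusted p of 0.384, which again decides nothing for a gene this far from 0. SLC27A2 was lower in KMS-34 by 1.53 on the log2 scale, with -0.05, -0.12 and 0.11 in KMS-34 and 1.394, 1.496 and 1.636 in KMS-11. Lower too were LACTB, a mitochondrial protease-like protein gene, at -1.46, MYO5C at -1.36, RAB8B at -1.29, SECISBP2L at -1.12, MYO5A at -0.97 and the RNA-binding protein gene RBPMS2 at -0.89.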

How the data were processed

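The authors normalized the 12 arrays with RMA (version not given in the sources used here), and the deposited table holds log2 values of 54613 probe sets, centred for each probe set by a step that is not stated. Centring keeps differences between arrays and removes levels, so no filter on dim signals could be set. Array medians lay between -0.02 and 0.01, and the number of arrays limits the precision. Probe sets naming 1 gene (41091) were averaged into 19775 genes, while 1801 name several genes and 11721 none. The 4 group means were fitted to all 12 arrays at once with lmFit, contrasts.fit and eBayes (limma 3.58.1, R 4.3.3). P-values are two-sided, with Benjamini-Hochberg adjustment across all genes and a threshold of 0.05. The fit was tested on simulated data. Gene order came from RefSeq (GRCh38.p14). Tables and figures used Python 3.11.15, pandas 2.3.3, numpy 2.4.6 and matplotlib 3.10.9.

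The genes, the lists and the relatives were chosen with earlier results of these data known. Named are the 12 lowest and 4 highest genes in KMS-11/Cfz, up to 8 rises and 8 falls past the threshold without overlap in each other comparison, the 3 genes at each end with 3 beyond, the 3 lowest and the highest of each role list, and the relatives of these. It gave 43 genes, and 5 others past the threshold were added with their values in view. Alternatives comprised 8 other settings and the omission of each array in turn. Cyclic loess was run on the centred values, which hold no signal levels.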

Additional observations from a re-analysis of the deposited data

Results flagged for a closer look

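In 14 of the 139 genes (10.1%, against 3.5% of all genes) every KMS-11/Cfz array lay on one side of all KMS-11 arrays and every KMS-34/Cfz array on the opposite side of all KMS-34 arrays. The difference was not tested, because it holds the contrast by which the stretch was chosen. CEP152, TRPM7 and DTWD1 are outside the rule for named genes and did not pass the threshold in either line. For the other 11, the change in KMS-34/Cfz minus the change in KMS-11/Cfz, on the log2 scale, was 0.958 for RAB8B, 0.884 for ANKDD1A, 0.638 for RFX7, 0.616 for MYO5A and 0.536 for PARP16. It was 0.423 for TPM1, 0.413 for VPS13C, 0.383 for TCF12, 0.366 for MYEF2 and 0.329 for SNX1. Among these 11, only ANXA2 had a negative value, -0.848, and 3 of its 4 probe sets are marked as reading several transcripts.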

How the results depend on the processing

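The median log2 difference of the 139 genes kept its sign in each comparison under all settings run. In KMS-11/Cfz over KMS-11 it was -0.094 under cyclic loess and -0.095 without probe sets marked as reading several transcripts, and -0.113 to -0.100 with 1 array left out. In KMS-34/Cfz over KMS-34 it was 0.066 with the probe set of largest variance and 0.035 to 0.048 with 1 array left out. In KMS-34 over KMS-11 it was -0.046 under cyclic loess and -0.028 to -0.009 with 1 array left out. Counts depended more on the settings. The 16 genes lower in KMS-11/Cfz became 5 at a threshold of 0.01, 30 with the line fitted alone, 39 with array weights (a fit that stopped before it converged), 10 with the probe set of largest variance and 5 to 24 with 1 array left out. The 1 higher gene became 2 with the line alone, 3 with array weights and 0 without marked probe sets, and stayed 1 with 1 array left out. The 11 genes that rose in KMS-34/Cfz became 2 at 0.01, 2 with the line alone, 27 with array weights and 3 to 13 with 1 array left out, 3 without KMS-34/Cfz replicate 2, 5 without its replicate 3, 5 and 4 without KMS-34 replicates 1 and 3, and 7 without KMS-11/Cfz replicate 2, its replicate 3 or KMS-11 replicate 1. The 4 that fell became 2 at 0.01, 2 with the line alone, 8 with array weights, 2 without marked probe sets and 2 to 5 with 1 array left out, with 2 without KMS-34/Cfz replicate 3. In KMS-34 over KMS-11, 29 to 38 were lower and 22 to 28 higher with 1 array left out. With the replicate number as a block, 15 were lower and 1 higher in KMS-11/Cfz, 4 lower and 9 higher in KMS-34/Cfz, and 35 lower and 26 higher in KMS-34. Nothing in the labels says that a number marks a shared culture or day. The correlation of same-numbered deviations was -0.009, 0.129 and 0.039 in KMS-11, and 0.561, 0.374 and 0.046 in KMS-34, not over 0.1 in every pair, so whether the numbers pair the arrays is undecided and the block served as an alternative only. The causes were not tested.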
